A study of Arabidopsis thaliana with 12 samples.

Results

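The genes described here are 85 genes of Arabidopsis thaliana whose transcripts were lower in seeds given gibberellin than in seeds given water at 3, 6 and 9 h. They were chosen by their measured values from 13513 probe sets that name 1 gene, of which they make up 0.629%. Seeds in the Ler background, all from 1 stock, had received either water or gibberellin (5 µM), and total RNA was taken at 3, 6 and 9 h and hybridised to 2 arrays per treatment and time, lettered A and B. This gives 6 groups and 12 arrays. The labels give neither the form of gibberellin nor the genotype of the stock beyond Ler, and they do not say whether the A and B arrays came from separate batches of seed, so a p-value here reflects array-to-array spread, which may be technical.

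Gibberellin is the hormone that promotes seed germination. It binds the GID1 receptors, and the bound receptor brings the DELLA proteins, repressors in the nucleus, to an F-box complex that marks them for degradation. Abscisic acid, which maintains dormancy, acts in the opposite direction, and many transcripts of the dry and imbibed seed depend on it.

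A gene was included when the mean log2 signal in gibberellin minus that in water was -0.4 or less at 3 h and -0.6 or less at both 6 and 9 h. Both gibberellin arrays also had to lie below both water arrays at every time, and the mean water signal had to be 50 or more at every time. Of the 13513 probe sets, 4696 had that water signal. The difference at 9 h was low enough in 791 of these, that at 6 h as well in 265 and all 3 in 134, and in 90 the arrays did not overlap either. XERICO, AOP3, AT3G25260, GID1A and SLY1 were then left out by name, which gives 85 genes with 1 probe set each. Since the differences between gibberellin and water chose the genes, they are given as a description with no test. Among all 15766 tested probe sets, both gibberellin arrays lay below both water arrays at all 3 times in 4.60%.

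The trimmed mean of the MAS5 signal was 100 on every array, and the 2 arrays of a group correlated at between 0.913 and 0.935 on the log2 scale. The brightest probe set reached only 3308 to 3787 on 4 arrays (both treatments, letter A, 3 and 6 h) and 6511 to 9143 on the other 8. The highest signal of any of the 85 genes on any array was 1794, below all of these. None of the 11 listed seed storage and oil body markers could be read from a single-gene probe set. Signals of 3 seed genes picked after their values had been seen are given instead, as a description that cannot check the tissue. PAP85 (AT3G22640), a vicilin-like storage protein gene, had signals from 1736 to 6650 over the 12 arrays, and LEA18 (AT2G35300), a late embryogenesis abundant gene, from 1777 to 5472. OLEO3 (AT5G51210), an oleosin gene of oil bodies, read 342 to 810. The medians of these 3 genes lay at or above the 95.4th percentile of all probe sets.

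The median difference over the 85 genes was -0.60 on the log2 scale at 3 h, -0.89 at 6 h and -1.17 at 9 h, which leaves 65.8%, 54% and 44.4% of the water signal. The corresponding medians over all tested probe sets were -0.02, -0.01 and 0.00. At least 2-fold lower signals were seen for 8 genes at 3 h, 33 at 6 h and 61 at 9 h. The range ran from -1.49 to -0.40 at 3 h, from -3.03 to -0.62 at 6 h and from -2.98 to -0.63 at 9 h. The A arrays and the B arrays gave medians of -0.59 and -0.59 at 3 h, -0.93 and -0.90 at 6 h and -1.22 and -1.22 at 9 h. Fewer cells of a type and less RNA per cell cannot be told apart in RNA from whole seeds.

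With limma and Benjamini-Hochberg adjustment over all 15766 probe sets, 2 of the 85 genes were called lower at 3 h, where 0.0444% of all probe sets were. At 6 h it was 23 genes and 0.565%, and at 9 h 67 genes and 3.69%. The rule used these contrasts, so nothing is read from those counts.

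**Figure D1:**
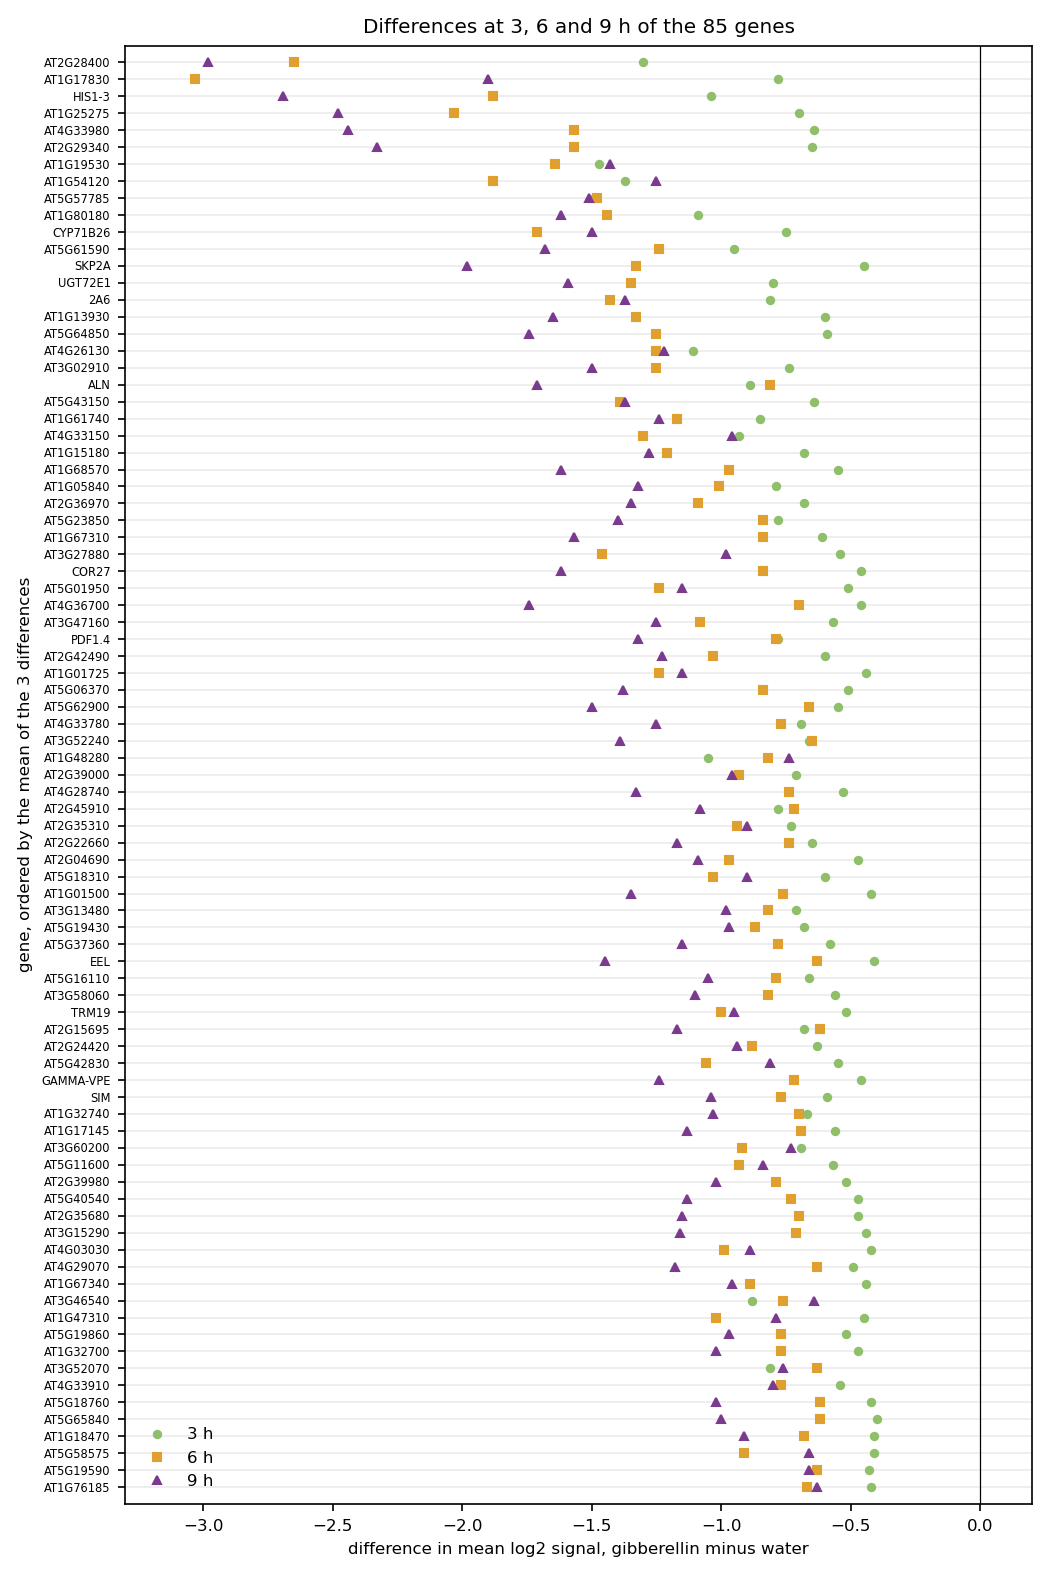
Differences in mean log2 signal (x axis, gibberellin minus water, 2 arrays a group) at 3 h (circles), 6 h (squares) and 9 h (triangles) for the 85 genes (y axis), ordered by the mean of the 3 differences. All points lie left of 0, as the rule requires, and the triangle is the leftmost of the 3 in 61 genes.

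Of the 85 genes, 16 carry a name in the array annotation or in the RefSeq table beyond their locus number. Among them 4 encode a linker histone, an AP2/ERF factor, a bZIP factor and a B3-domain protein, and their median difference was -0.84 at 3 h and -1.56 at 9 h. Arrays are given in the order A, B. HIS1-3 (AT2G18050), the drought-inducible linker histone, read 252 and 380 in water against 116 and 197 in gibberellin at 3 h, 298 and 332 against 65.3 and 111 at 6 h and 281 and 420 against 45 and 63.2 at 9 h. Its signal in gibberellin stepped down with time while the water arrays stayed between 252 and 420, and the groups were furthest apart at 9 h, where 15.5% of the water signal was left. The log2 differences were -1.04, -1.88 and -2.69 (SE 0.342 each). AT5G61590 (DEWAX), an AP2/ERF factor that represses cuticular wax synthesis, read 479 and 586 in water against 249 and 303 in gibberellin at 3 h, 546 and 449 against 255 and 173 at 6 h and 459 and 546 against 148 and 164 at 9 h. Its 6 water arrays lay between 449 and 586 and its gibberellin arrays at 303 or below, with differences of -0.95, -1.24 and -1.68 (SE 0.224 each).

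EEL (AT2G41070) encodes a bZIP factor that binds the promoter of an Em gene of late embryogenesis and competes there with ABI5, a mediator of abscisic acid signalling. Its signals were 84.6 and 95.3 in water against 55.4 and 82.5 in gibberellin at 3 h, 115 and 111 against 64.7 and 82.3 at 6 h and 124 and 128 against 43 and 49.3 at 9 h. The water and gibberellin arrays lay close together at 3 h, with 82.5 on the gibberellin B array and 84.6 on the water A array, and wide apart at 9 h, so EEL is one of the least different genes at 3 h. Its differences were -0.41, -0.63 and -1.45 (SE 0.239 each). AT2G35310 (REM23), a B3-domain gene of the reproductive meristem family, read 224 and 260 in water against 158 and 134 in gibberellin at 3 h, 214 and 250 against 112 and 129 at 6 h and 196 and 236 against 103 and 130 at 9 h. Here the gap was much the same at each time, with differences of -0.73, -0.94 and -0.90 (SE 0.203 each).

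**Figure D2:**
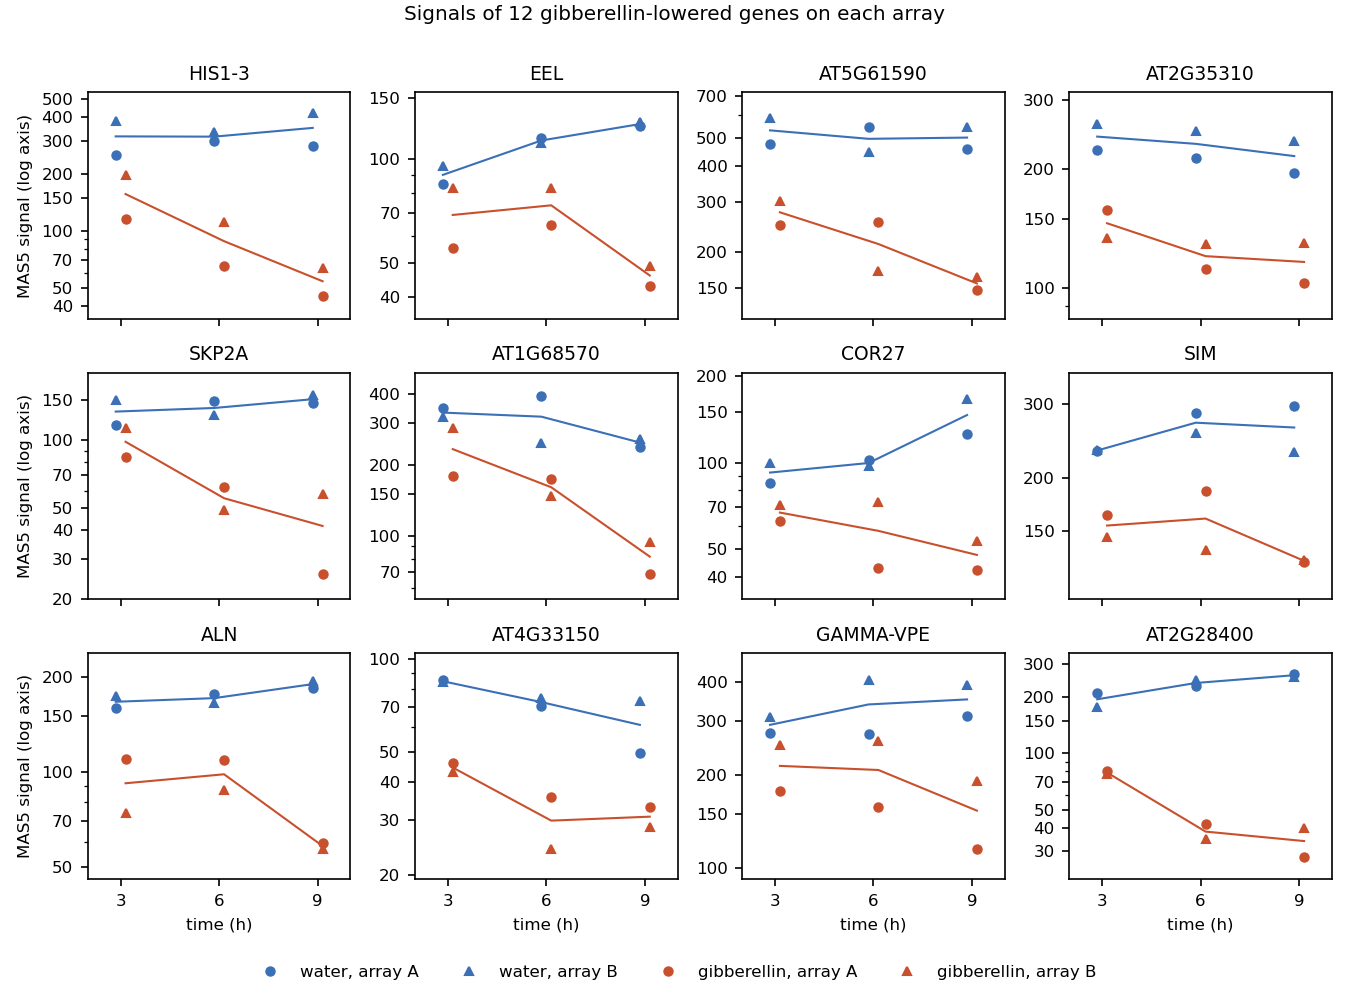
MAS5 signal (y axis, log scale) against time in h (x axis) for 12 of the 85 genes, with a circle for the A and a triangle for the B array of each group and lines through the means of 2 arrays, water in blue and gibberellin in red-orange. HIS1-3 steps down to 45 and 63.2 in gibberellin at 9 h, and COR27 and EEL are higher in water at 9 h than at 3 h.

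A further 5 named genes belong to growth, transport and timing, and their median difference went from -0.52 at 3 h to -1.62 at 9 h. AT1G68570 (NPF3.1), a membrane transporter known to carry gibberellin and nitrite, read 347 and 319 in water against 180 and 286 in gibberellin at 3 h, 392 and 248 against 174 and 147 at 6 h and 239 and 258 against 69 and 94 at 9 h. The B arrays at 3 h, 319 and 286, were close, and by 9 h the gibberellin arrays lay at 94 or below. Its differences were -0.55, -0.97 and -1.62 (SE 0.272 each). SKP2A (AT1G21410), an F-box protein that binds auxin and targets cell cycle repressors for degradation, read 117 and 151 in water against 84.1 and 113 in gibberellin at 3 h, 149 and 129 against 61.9 and 49.1 at 6 h and 146 and 158 against 25.6 and 58.1 at 9 h. Its difference at 3 h was among the smaller ones and that at 9 h left 25.4% of the water signal; the differences were -0.45, -1.33 and -1.98 (SE 0.338 each).

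SIM (AT5G04470, SIAMESE), an inhibitor of cyclin-dependent kinases that favours endoreduplication, read 232 and 233 in water against 164 and 145 in gibberellin at 3 h, 285 and 256 against 186 and 135 at 6 h and 296 and 231 against 127 and 128 at 9 h. The groups did not overlap at any time, and 66.5% of the water signal was left at 3 h and 48.6% at 9 h, with differences of -0.59, -0.77 and -1.04 (SE 0.204 each). COR27 (AT5G42900), a cold-regulated gene that acts in the circadian clock, read 84.8 and 99.8 in water against 62.8 and 71.1 in gibberellin at 3 h, 102 and 97.3 against 42.9 and 72.7 at 6 h and 126 and 167 against 42.1 and 53.2 at 9 h. Its mean water signal was highest at 9 h and its mean gibberellin signal lowest, with differences of -0.46, -0.84 and -1.62 (SE 0.276 each). Its change from 3 to 9 h did not pass limma in either arm (0.66 ± 0.276 in water and -0.50 ± 0.276 in gibberellin). TRM19 (AT3G53540), of the family that recruits TON1 to microtubules, had differences of -0.52, -1.0 and -0.95 (SE 0.214 each). Its 6 water arrays lay between 106 and 132 and its 6 gibberellin arrays between 51.9 and 81.3.

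The last 7 named genes encode enzymes of metabolism, a protease and a defensin, and their median difference was -0.80 at 3 h, -1.30 at 6 h and -1.37 at 9 h. AT4G33150, the LKR/SDH gene for the bifunctional enzyme that opens lysine breakdown, read 85.3 and 84 in water against 46 and 43 in gibberellin at 3 h, 70.3 and 74.6 against 35.7 and 24.2 at 6 h and 49.5 and 72.8 against 33.1 and 28.6 at 9 h. Its signal was lower in gibberellin by a similar factor at 3 and 9 h, 52.5% and 51.3% of water, with differences of -0.93, -1.30 and -0.96 (SE 0.281 each). ALN (AT4G04955), allantoinase of purine breakdown, read 160 and 174 in water against 110 and 74.1 in gibberellin at 3 h, 177 and 166 against 109 and 87.6 at 6 h and 185 and 195 against 59.4 and 57 at 9 h. The arms were nearest at 6 h and furthest apart at 9 h, with differences of -0.89, -0.81 and -1.71 (SE 0.219 each). GAMMA-VPE (AT4G32940), a vacuolar cysteine protease that processes proteins, had differences of -0.46, -0.72 and -1.24 (SE 0.316 each).

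CYP71B26 (AT3G26290), a cytochrome P450, had its largest difference at 6 h, with -0.75, -1.71 and -1.50 (SE 0.338 each). UGT72E1 (AT3G50740), which glucosylates aldehyde precursors of lignin, had differences of -0.80, -1.35 and -1.59 (SE 0.356 each), and 2A6 (AT1G03410), of the 2-oxoglutarate-dependent dioxygenase family, -0.81, -1.43 and -1.37 (SE 0.185 each). PDF1.4 (AT1G19610), a plant defensin, read 185 and 92.2 in water against 69.9 and 83.1 in gibberellin at 3 h, 100 and 144 against 55.6 and 86.4 at 6 h and 104 and 53.6 against 27.5 and 32.5 at 9 h. Its water arrays differed by a factor of about 2 at 3 h (185 and 92.2) and at 9 h (104 and 53.6), and its differences, -0.78, -0.79 and -1.32 (SE 0.392 each), had the widest error among the named genes.

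The other 69 genes are given by their locus. Their median differences were -0.60, -0.87 and -1.15, with the same ranges as all 85. Of the 10 genes with the lowest mean difference 9 are among them, and HIS1-3 is the other. AT2G28400 had the lowest mean and read 212 and 178 in water against 80 and 77.9 in gibberellin at 3 h, 231 and 246 against 41.6 and 34.6 at 6 h and 268 and 257 against 27.8 and 40 at 9 h. Its signal in gibberellin was already 40.6% of that in water at 3 h and 12.7% at 9 h, the lowest share of the 85 genes at that time, with differences of -1.30, -2.65 and -2.98 (SE 0.22 each). AT1G25275 read 244 and 324 in water against 145 and 206 in gibberellin at 3 h, 236 and 324 against 71.7 and 64.1 at 6 h and 263 and 326 against 48.5 and 56.9 at 9 h, and AT4G33980 read 167 and 177 in water against 84.5 and 144 in gibberellin at 3 h, 198 and 218 against 65.1 and 75.1 at 6 h and 188 and 160 against 34.7 and 29.4 at 9 h. Both had a modest gap at 3 h and under 20% of the water signal at 9 h (17.9% and 18.4%), with differences of -0.70, -2.03 and -2.48 (SE 0.246 each) and of -0.64, -1.57 and -2.44 (SE 0.251 each).

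AT2G29340 followed the same course, with 187 and 235 in water against 116 and 153 in gibberellin at 3 h, 153 and 212 against 60.5 and 60.8 at 6 h and 176 and 210 against 28.8 and 51.3 at 9 h and differences of -0.65, -1.57 and -2.33 (SE 0.287 each). AT1G80180 read 404 and 762 in water against 186 and 368 in gibberellin at 3 h, 450 and 553 against 173 and 195 at 6 h and 491 and 555 against 166 and 174 at 9 h, with differences of -1.09, -1.44 and -1.62 (SE 0.327 each). Its A and B arrays at 3 h differed by nearly as much as the treatments, since the gibberellin B array (368) came close to the water A array (404). AT1G17830 was the dimmest of the 10 genes and read 49.6 and 52.5 in water against 24.6 and 35.7 in gibberellin at 3 h, 72.2 and 45.9 against 13 and 3.85 at 6 h and 64.8 and 58.9 against 14.9 and 18.3 at 9 h. Both gibberellin arrays at 6 h and the A array at 9 h lay below 16, the signal under which probe sets count as dim, and the differences were -0.78, -3.03 and -1.90 (SE 0.502 each).

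In another 3 of the 10 genes with the lowest mean, the gap at 3 h was about as large as that at 9 h. AT1G19530 read 239 and 262 in water against 79.6 and 102 in gibberellin at 3 h, 298 and 247 against 92.7 and 81.6 at 6 h and 285 and 335 against 100 and 132 at 9 h. AT5G57785 read 159 and 225 in water against 84 and 54.2 in gibberellin at 3 h, 152 and 236 against 95 and 48.5 at 6 h and 206 and 246 against 81.2 and 77 at 9 h, and AT1G54120 read 118 and 98.2 in water against 49.2 and 35.5 in gibberellin at 3 h, 139 and 91.4 against 41.6 and 22.5 at 6 h and 109 and 95.9 against 43.5 and 42.4 at 9 h. In each of them the gibberellin signal at 3 h was between 35.7% and 38.8% of that in water and no lower share than 35.1% was left at 9 h. The differences were -1.47, -1.64 and -1.43 (SE 0.213 each) for AT1G19530, -1.49, -1.48 and -1.51 (SE 0.343 each) for AT5G57785 and -1.37, -1.88 and -1.25 (SE 0.323 each) for AT1G54120.

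Over the 85 genes, the difference was larger at each later time in 56, largest at 6 h in 21, largest at 3 h in 3 and largest at 9 h without a steady order in 5. In the median gene 50.7% of the log2 difference at 9 h was present at 3 h and 81.1% at 6 h. Subtracting the 3 h difference from the 9 h one gave a value with a median standard error of 0.371, so the order within a single gene is often within error. With limma this value passed in 0 of the 85 genes and in 2 of all 15766 probe sets. The rule's threshold is looser at 3 h (-0.4) than at 6 and 9 h (-0.6), so part of this order with time is built in. The 3 genes with the highest signal in water were in the first class. AT1G13930 had differences of -0.60, -1.33 and -1.65 (SE 0.259 each), AT3G02910 of -0.74, -1.25 and -1.50 (SE 0.205 each) and AT2G39980 of -0.52, -0.79 and -1.02 (SE 0.184 each). Of the locus-only genes in that class the others not described elsewhere are AT5G64850, AT1G61740, AT1G15180, AT1G05840, AT2G36970, AT5G23850, AT1G67310, AT3G47160, AT2G42490, AT5G06370, AT5G62900, AT4G33780, AT2G39000, AT4G28740, AT2G22660, AT2G04690, AT3G13480, AT5G19430, AT5G37360, AT5G16110, AT3G58060, AT2G24420, AT1G32740, AT1G17145, AT5G40540, AT2G35680, AT3G15290, AT4G29070, AT1G67340, AT5G19860, AT1G32700, AT4G33910, AT5G18760 and AT5G19590. At 9 h the differences of all 46 locus-only genes in the class lay between -2.98 and -0.66.

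The 3 genes whose own difference was largest at 3 h were AT1G48280, with -1.05, -0.82 and -0.74 (SE 0.237 each), AT3G46540, with -0.88, -0.76 and -0.64 (SE 0.224 each), and AT3G52070, with -0.81, -0.63 and -0.76 (SE 0.271 each). Besides AT1G17830, AT1G19530, AT1G54120, CYP71B26, 2A6, AT4G33150, AT2G35310 and TRM19, the genes whose own difference was largest at 6 h were AT4G26130, AT5G43150, AT3G27880, AT5G01950, AT1G01725, AT5G18310, AT5G42830, AT3G60200, AT5G11600, AT1G47310, AT5G58575, AT4G03030 and AT1G76185. The differences of these 21 at 9 h lay between -1.90 and -0.63. The 5 without a steady order were ALN, AT5G57785, AT3G52240, AT2G45910 and AT2G15695. AT1G76185 had the smallest difference at 9 h of all 85 genes, -0.63.

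In water the levels of the 85 genes differed little between times, as did those of all tested probe sets. The mean water signal of the 85 genes had a median of 164 and ran from 56.7 to 1459, against a median of 71.1 over all tested probe sets, which the rule's minimum of 50 raises. Over the 6 water arrays the coefficient of variation had a median of 13.9% in the 85 genes and of 14.3% in the 8871 tested probe sets with a water signal of 50 or more. From 3 to 9 h in water the median log2 change was -0.03 (quartiles -0.16 and 0.10), and over all tested probe sets it was -0.01 (quartiles -0.19 and 0.18). With limma, 0 of the 85 genes passed at 9 h against 3 h and 0 at 6 h against 3 h, and 0% of all probe sets did in either direction. At an unadjusted p under 0.05 it was 1 of the 85 genes at 9 h, COR27, and 326 of all 15766, and at 6 h it was 0 and 291. The contrast itself was not part of the rule, but the same water arrays were, so these counts are a description.

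The 3 genes with the highest and the 3 with the lowest change in water are given here. COR27 had a log2 difference of 0.66 ± 0.276 (SE) between water at 9 h and at 3 h, EEL of 0.49 ± 0.239 and AT4G36700 of 0.47 ± 0.246. PDF1.4 had one of -0.80 ± 0.392, LKR/SDH (AT4G33150) of -0.50 ± 0.281 and NPF3.1 (AT1G68570) of -0.42 ± 0.272, which CYP71B26 equalled to 2 decimals (-0.42 ± 0.338). The limma adjusted p of each of the 7 was 1. AT4G36700 read 853 and 702 in water against 524 and 604 in gibberellin at 3 h, 660 and 1014 against 420 and 607 at 6 h and 970 and 1188 against 328 and 315 at 9 h. Its water arrays at 9 h and its gibberellin arrays at 9 h moved apart from a narrow gap at 3 h, with differences of -0.46, -0.70 and -1.74 (SE 0.246 each).

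In the gibberellin arm 0 of the 85 genes passed at 6 h against 3 h with limma, where 0.00634% of all probe sets were called lower; 16 of the 85, all of them lower, and 615 of all 15766 in either direction had an unadjusted p under 0.05. By 9 h the 85 genes had mostly lower signals than at 3 h, with a median log2 change of -0.59 (quartiles -0.82 and -0.42) against 0.00 over all tested probe sets (quartiles -0.30 and 0.34). The change was negative in 80 of the 85 genes and in 49.7% of all tested probe sets. In both arms the A array at 3 h had the low signal ceiling and no array at 9 h did, so time and ceiling are partly confounded. With limma, 6 of the 85 genes (7.06%) fell and 0 rose, against 0.266% of all probe sets called lower and 0.222% called higher. They were AT2G29340 (-1.80 ± 0.287, adjusted p = 0.024), AT4G33980 (-1.79 ± 0.251, adjusted p = 0.0157), AT1G25275 (-1.72 ± 0.246, adjusted p = 0.0164), NPF3.1 (AT1G68570; -1.50 ± 0.272, adjusted p = 0.0391), AT2G28400 (-1.24 ± 0.22, adjusted p = 0.0359) and AT1G01500 (-1.18 ± 0.198, adjusted p = 0.0301). In each of the 6 both arrays at 9 h lay below both at 3 h, which is likely in genes called for this fall and adds nothing to the call. The share of all probe sets separated in this way was not counted. With the replicate letter as a block 33 of the 85 genes (38.8%) fell and 0 rose, against 3.88% of all probe sets called lower. The same arrays entered the rule, whose threshold is lower at 9 h than at 3 h, so the counts describe these genes and support nothing further.

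The count of 6 rests on single arrays. It was 0 without the gibberellin 3 h B array (0.0385% of all probe sets were called lower), without the gibberellin 9 h A array (0.147%) or without an intensity trend in the variances (0.0254%). It was 3 without either gibberellin 6 h array (0.160% and 0.167%) or the water 9 h A array (0.134%) and 2 without the water 9 h B array (0.115%). HIS1-3, SKP2A, CYP71B26 and PDF1.4 had changes of -1.50, -1.34, -1.16 and -1.35 in gibberellin from 3 to 9 h and did not pass without the block. At the other end AT1G19530 (0.35), AT5G57785 (0.23), AT3G52070 (0.19), AT1G54120 (0.04) and AT3G46540 (0.01) had changes at or above 0 in gibberellin from 3 to 9 h.

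**Figure D3:**
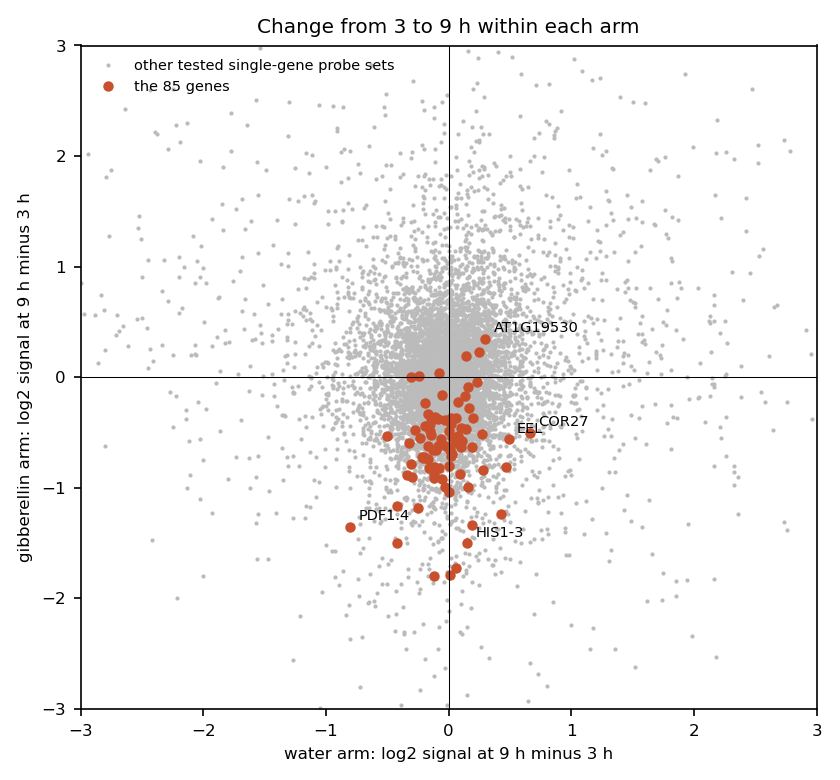
Log2 change from 3 to 9 h in the water arm (x axis) against that in the gibberellin arm (y axis) for the 85 genes (orange) and the other 8769 tested probe sets that name 1 gene (grey), of which 53 lie outside the axis range of -3 to 3. The 85 genes gather near 0 on the x axis and mostly below 0 on the y axis, with medians of -0.03 and -0.59.

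Genes lay close to the thresholds on both sides. The genes just inside were AT5G65840, with differences of -0.40, -0.617 and -1.001, EEL with -0.409, -0.633 and -1.451, and AT1G18470 with -0.410, -0.677 and -0.912. Just outside were ZAP1, a WRKY transcription factor gene, with -0.399, -0.670 and -1.096, AT3G22550 with -1.291, -1.535 and -0.595, and AT1G80570 with -0.895, -0.978 and -0.594. On the arrays, AT5G65840 read 74.8 and 75.2 in water against 55.1 and 58.6 in gibberellin at 3 h, 80.9 and 65.3 against 48.7 and 46.1 at 6 h and 59.2 and 62.7 against 32.2 and 28.8 at 9 h, and AT1G18470 read 164 and 139 in water against 117 and 110 in gibberellin at 3 h, 162 and 157 against 101 and 98 at 6 h and 129 and 131 against 67.9 and 70 at 9 h. ZAP1 read 257 and 267 in water against 198 and 200 in gibberellin at 3 h, 226 and 293 against 162 and 161 at 6 h and 289 and 287 against 160 and 114 at 9 h. Its groups did not overlap at any time, and it missed the threshold at 3 h alone. AT3G22550 read 67.3 and 115 in water against 42.5 and 30.3 in gibberellin at 3 h, 69.8 and 121 against 34 and 29.7 at 6 h and 78.9 and 70.4 against 48.4 and 50.3 at 9 h, and AT1G80570 read 66.6 and 64.8 in water against 37.1 and 33.6 in gibberellin at 3 h, 67.6 and 64 against 34.9 and 31.9 at 6 h and 52.3 and 49.3 against 30.4 and 37.3 at 9 h. Both missed at 9 h, where their arms lay closer together than at 6 h. AT3G22550 had larger differences at 3 and 6 h than most of the 85 genes.

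The count of 85 genes also depended on the arrays at 3 h. The rule was met by 151 genes without the water 3 h A array, of which 75 are among the 85, and by 168 without the gibberellin 3 h B array, with 75 shared. Leaving out any other array gave 74 to 100 genes, with 59 to 82 shared. On the 8 arrays with the high signal ceiling, a comparison added after the data had been seen, 97 genes met it and 55 were shared. With the offset of log2(signal + 16) 59 genes met it, all among the 85. Median centring gave 77 genes, of which 61 were shared, and quantile normalization 89, of which 78 were shared.

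**Figure D4:**
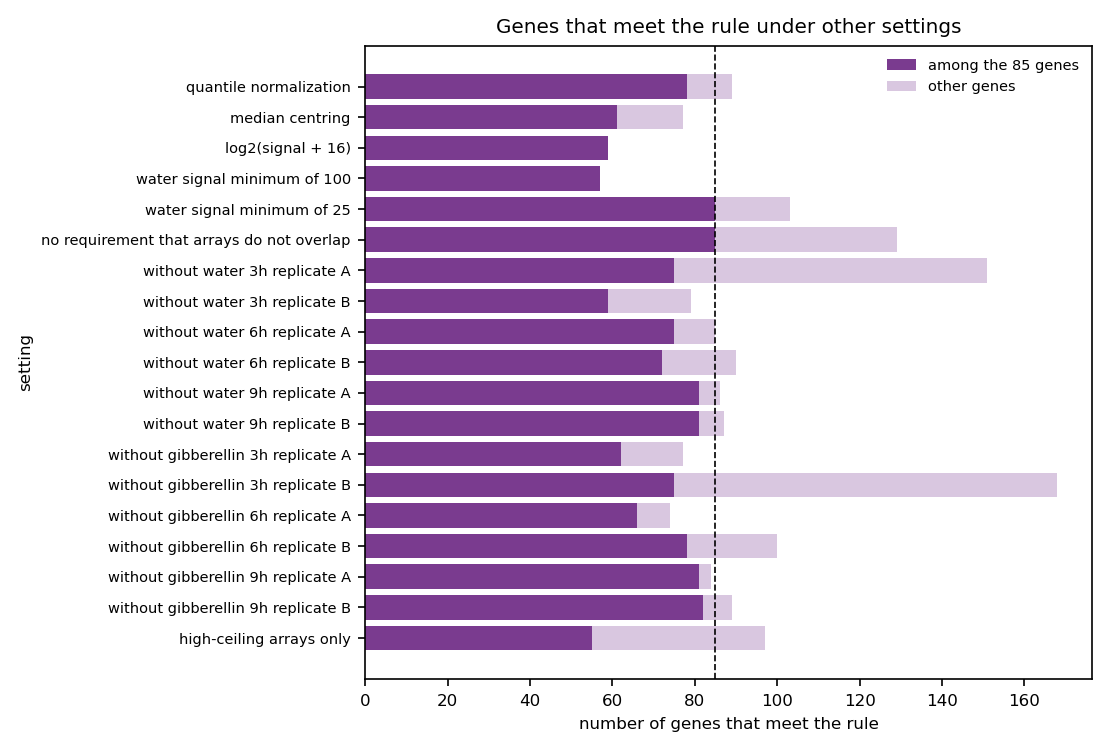
Number of genes that meet the rule (x axis) under each other setting (y axis), split into those among the 85 genes (dark) and others (light), with a dashed line at 85. The longest bars, 151 and 168, are those without the water 3 h A array and without the gibberellin 3 h B array.

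Some of the genes are near each other in the order of protein-coding genes of the assembly TAIR10.1. They are listed as a description, since the number of such pairs among any 85 genes was not counted. AT1G32700 and AT1G32740 are separated by 3 genes, and so are AT1G67310 and AT1G67340. AT1G19530 and PDF1.4 have 6 genes between them, AT5G42830 and COR27 have 7 and AT4G33910 and AT4G33980 have 8. AT4G03030 has 1 gene between it and AOP3, one of the genes left out by name. Those left out had differences at 9 h of -3.11 (XERICO), -2.74 (AOP3), -2.46 (AT3G25260), -2.03 (GID1A) and -1.32 (SLY1), of which the first 4 are lower than the median of the 85 genes by over 0.8 on the log2 scale.

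Lists of the pathways around these genes could be read only in small part. Of 121 entries in 8 lists, 10 could be assigned a single-gene probe set, and 8 of those genes were tested. None of the 31 genes of abscisic acid perception and signalling and none of the 13 of its synthesis and breakdown was among them, and 0 of the tested list genes is one of the 85. For XERICO, GID1A and GID1B this was fixed beforehand, since the rule leaves them out by name. XERICO and GID1A met all of its values. In the list of dormancy and abscisic acid response 1 of 20 entries was tested. This was COR47 (AT1G20440), a dehydrin gene, which read 39.6 ± 5.14 in water and 313 ± 102 in gibberellin (SD, n = 2) at 9 h. The log2 change, gibberellin minus water, was 2.95 ± 0.468 (limma adjusted p = 0.00402). At 6 h its change was 2.39 ± 0.468 (limma adjusted p = 0.0293), a call that was lost on leaving out any of the 4 arrays at 6 h, on the arrays with the high ceiling alone or without an intensity trend. At 9 h 3.79% of all probe sets were called higher, and at 6 h 0.913%.

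SPT (AT4G36930, SPATULA), a helix-loop-helix gene that restrains germination in the dormant seed, was the only tested member of 11 in the list of light control of germination. It read 108 ± 12.8 in water and 276 ± 50.6 in gibberellin (SD, n = 2) at 9 h. The log2 change was 1.35 ± 0.247 (limma adjusted p = 0.00829), and the call was lost without the gibberellin 9 h A array or the water 9 h B array. Of the 17 DELLA genes and reported DELLA targets 4 were tested. XERICO and GID1A, which the rule leaves out by name, were called lower in gibberellin than in water at 6 and 9 h. The GID1A call at 6 h was lost without the gibberellin 6 h B array or either water 6 h array. It was also lost on the arrays with the high ceiling alone and without an intensity trend. IQD22 (AT4G23060), a calmodulin-binding protein gene, had a change of -0.90 ± 0.288 at 9 h (limma adjusted p = 0.0844) that passed with the replicate letter or the signal ceiling as a block. This change was -1.30 without the gibberellin 9 h A array and -0.50 without the gibberellin 9 h B array. GID1B had changes of 0.03, -0.61 and -0.88 at 3, 6 and 9 h (SE 0.685 each) and did not pass at any time. Its group means lay between 12.7 and 23.2, near the signal of 16 that counts as dim. In the list of leaf photosynthesis markers 2 of 9 were tested, and RCA (-0.42 ± 0.576) and LHCB4.1 (-0.76 ± 0.366) did not pass at 9 h (limma adjusted p of 0.753 and 0.251), while LHCB4.1 passed with the replicate letter as a block. The summed signal of these 2 markers lay between 384 and 822 on the water arrays and between 307 and 833 on the gibberellin arrays, and their part in the differences of the 85 genes was not tested. For the seed coat flavonoid markers 0 of 9 could be tested. BAN (AT1G61720), the only one of them with a single-gene probe set, had group means between 3.18 and 7.18, below the signal of 16 that counts as dim.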

How the data were processed

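Total RNA was labelled with biotin and hybridised to 12 one-colour Affymetrix arrays. The deposited intensity values are MAS5 signals on a linear scale, per the submitters' processing notes, which name no MAS5 version. The trimmed mean of the deposited values is 100 on every array, so a change in total RNA per seed would not show. Signals were taken to log2 with no further normalization.

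After control probe sets were left out, 22746 remained, and 15766 were tested: those with at least 2 arrays above the 40th percentile of all signals, a signal of 16. Of the 22746, 13513 name exactly 1 gene in the platform annotation, and 13436 of these match the RefSeq table of TAIR10.1 (84 of the 85 genes do; AT5G57785 keeps the annotation's name). Probe sets with several genes or none gave no gene names. A name or role is given only where those tables name the gene.

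With limma 3.58.1 in R 4.3.3, log2 signals of the 12 arrays were modelled by the 6 group means, with an intensity trend in the variances (6 residual and 5.53 prior degrees of freedom). Tests are two-sided, and an adjusted p under 0.05 over the 15766 probe sets counts as past the test. Changes are log2 differences ± SE of this model, and a percentage of the water signal is the antilog of the difference. The procedure was tested on simulated data. The 2 arrays of a group limit the precision: the median SE of a change at 1 time was 0.317 over all probe sets and 0.263 over the 85 genes.

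A and B differences of the 2 treatments correlated at 0.275, 0.169 and 0.103 at 3, 6 and 9 h, each over 0.1. The letter was therefore added as a block in a second fit. The main fit, by group means alone, did not use the letters. The second fit is given beside some of the results that it moves. It is not given for the counts of the described genes called lower in gibberellin than in water. The letters come from the sample titles, which do not say what they stand for.

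The genes, the lists and the tests were chosen with earlier results of these data known. Every gene of the 85 is named. Values on all arrays are given for the 10 with the lowest mean difference, for those with a role in hormone action, transcription or transport, for those with the largest changes in water and for those nearest a threshold; ALN and SIM were added to these after their values had been seen. Of each fixed list up to 4 passing genes are given, or 2 as values. Of the 121 list entries 3 were dropped because the RefSeq table gives the locus another name. Alternatives were quantile normalization, median centring, an offset of 16, no filter, no trend, the letter or the signal ceiling as a block, and each array left out.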

Additional observations from a re-analysis of the deposited data

How the results depend on the processing

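With 2 arrays a group, counts of calls depended strongly on how the spread was estimated. The 36 calls at 3 h became 110 with the replicate block, 66 with a block for the signal ceiling, 6 with no trend of variance on intensity and 6 on the high-ceiling arrays alone, and leaving out single arrays gave 15 to 31 (15 without the water 3 h B array, 22 and 21 without water 6 h A or B). The 233 calls at 6 h became 857, 505, 81 and 67 under the same 4 settings, and 67 to 301 without single arrays (120 and 67 without water 6 h A or B, 80 and 104 without gibberellin 6 h A or B). The 1178 calls at 9 h became 2691 with the replicate block, 1996 with the ceiling block and 639 without a trend, and 257 to 1271 without single arrays (466 and 257 without water 9 h A or B, 449 and 660 without gibberellin 9 h A or B). Median centring, which shifts an array by up to 0.18 on the log2 scale, gave 570 lower and 427 higher calls at 9 h against 581 and 597. The causes were not tested.

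The rule was met by 129 genes when overlapping arrays were allowed, and by 74 to 168 without single arrays. The genes that fell in gibberellin from 3 to 9 h numbered 33 with the replicate block (3.88% of all probe sets were called lower), 21 with the ceiling block (2.97%), 0 without a trend (0.0254%) and 0 to 8 without single arrays (0.0385% to 0.707%), and 0 of the 85 passed in water under any of the settings run. The offset of 16 moved 29 of the 85 differences at 9 h by more than 1 SD. Besides these counts, the replicate block let XERICO pass at 3 h, SPT at 6 h, and IQD22 and LHCB4.1 at 9 h. The ceiling block did the same for these genes except LHCB4.1. The planned comparison of promoter motifs was not run, since no promoter sequence was used here.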

Other observations

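The same values were also met by probe sets without a gene name of their own. Of 8730 probe sets that the annotation leaves unnamed, 88 (1.01%) had the differences, the array separation and the water signal of the rule, and of 503 that name several genes 1 did. These are not among the 85 genes.

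With the sign of the differences turned and the same thresholds and water signal, 402 genes passed at 9 h, 129 at 6 h as well and 70 at all 3 times, and in 53 the arrays did not overlap, against 90 lower ones before the named genes were left out. Genes with a mean water signal under 50 at any time enter neither count. This minimum was set on water alone. It removes genes that are low in water and raised by gibberellin, but no gene for being low in gibberellin. COR47, for example, had means of 39.6 in water and 313 in gibberellin at 9 h. The counts of 53 and 90 therefore do not show whether more genes were lowered than raised.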
